A study of Homo sapiens with 6 samples.

Results

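The genes described here are 30 genes of sterol and isoprenoid synthesis and of its control by the sterol regulatory element binding proteins (SREBPs), in SKOV3 ovarian carcinoma cells treated with siRNA against the long non-coding RNA NRCP. They were taken from a list of gene symbols set by function, which was chosen with earlier results of these data known. Every probe annotated with 1 of these symbols was used. Of the 30 genes, 29 had at least 1 probe, 41 probes in all, out of 20046 named genes and 47231 probes on the array. FDFT1, the squalene synthase gene, had no probe under its name and is not analysed here. A gene with several probes is given by its brightest one, with the others beside it.

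Cells make cholesterol from acetyl-CoA through mevalonate, which is turned into isoprenoid diphosphates. These are either joined to squalene, closed to lanosterol and trimmed to cholesterol, or used to make prenyl anchors of proteins, dolichol and ubiquinone. The SREBPs are membrane proteins of the endoplasmic reticulum. When sterols are low, SCAP carries them to the Golgi, where a pair of proteases frees the transcription factor that switches on most enzymes of the pathway, and when sterols are high, INSIG proteins hold SCAP back.

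The siNRCP group held 3 samples of SKOV3 cells treated for 48 h with siRNA against NRCP, and the sicontrol group held 3 samples treated for the same time with control siRNA. SKOV3 is 1 established human cell line, and the labels do not say that the samples of a group came from separate cultures, so the p-values cover the spread between these samples alone, and that may be technical. RNA (500 ng of total RNA per sample) was hybridised to Illumina BeadArrays, and each sample had its own array. NRCP itself had no probe under that name, and the depth of the silencing is not analysed here. Values are normalized log2 intensities of a probe, compared between groups and never between probes.

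The mean raw intensity was 554, 373 and 486 on siNRCP arrays 1 to 3, against 563, 555 and 555 on sicontrol arrays 1 to 3, and the background level, the 95th percentile of 437 olfactory receptor probes, lay between 6.41 and 6.49 log2. Array 1 of siNRCP stood apart from siNRCP arrays 2 and 3, as its weight in a fit with array weights was 0.28, against 0.73 and 2.21. Counts of genes that passed are therefore also given without it. Of 8 markers of SKOV3-type epithelial cells (KRT8, KRT18, KRT19, EPCAM, CDH1, ERBB2, PAX8 and MUC1), 8 were above background on every array, and their summed level was 14.47 to 15.10 log2 in siNRCP and 14.47 to 14.62 log2 in sicontrol. Of 14 markers of leukocytes, endothelium, fibroblasts and hepatocytes, only COL1A1 was above background on every array.

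Genes at 2 stretches of the pathway fell in siNRCP. HMGCS1 and IDI1, which act early, before squalene, and TM7SF2 and EBP, which work on the sterol ring, passed the limma test (Benjamini-Hochberg adjusted p under 0.05 over all 47231 probes), with decreases of at least 1.53-fold (EBP) to 2.32-fold (TM7SF2). Under other normalizations the bound on EBP was 1.34-fold to 1.86-fold. These were 4 of the 29 genes (13.8%). Of all named genes 1.51% passed as lower, and of the 11558 named genes above background on at least 3 arrays 2.62% did. As the list was chosen with earlier results of these data known, these shares are descriptions and no test of the list. None of the 29 passed as higher (0, with 2 at an unadjusted limma p under 0.05), where 1.27% of named genes, and 2.21% of those above background, did. At an unadjusted limma p under 0.05, 7 of the 29 were lower and 2 higher. The shares of all named genes were 9.53% as lower and 11% as higher, and of those above background 15.5% and 18.1%. The median change over the 29 genes was -0.09 log2, against 0.01 over all named genes, and 16 genes had a negative and 13 a positive change. Of all named genes 303 passed as lower and 255 as higher. Under median scaling, which shifted the median of named genes above background to -0.14 log2, these counts were 150 and 35, and 21 of the 29 genes had a negative change. In a bulk sample, fewer cells of a type and less RNA per cell cannot be told apart.

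**Figure D1:**
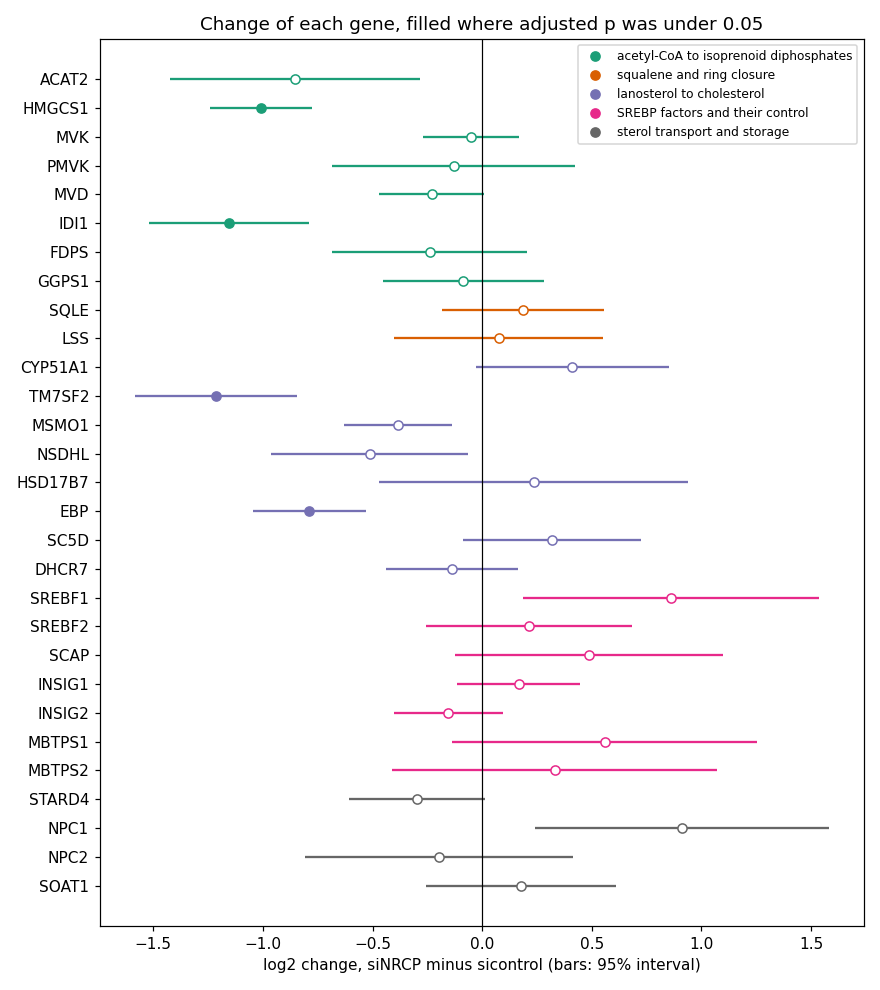
Change of each of the 29 genes in siNRCP minus sicontrol on the log2 scale (x axis), 1 row per gene in pathway order, coloured by role. Points are limma estimates from 3 arrays per group, bars are 95% intervals, and filled points had an adjusted p under 0.05. The 4 filled points, HMGCS1, IDI1, TM7SF2 and EBP, all lie left of 0, that of EBP being its fitted value with the siNRCP arrays at background.

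HMGCS1 encodes the cytosolic synthase that joins acetoacetyl-CoA and acetyl-CoA to HMG-CoA, the precursor of mevalonate. Its probe (ILMN_1797728) read 10.70, 10.94 and 10.87 log2 on siNRCP arrays 1 to 3, against 11.78, 11.93 and 11.83 on sicontrol arrays 1 to 3. The groups did not overlap, and the arrays within a group lay close together, siNRCP array 1 included. Before any normalization the same probe read 1887, 1358 and 1895 in siNRCP, against 4110, 4444 and 4113 in sicontrol. HMGCS1 fell by 1.01 ± 0.10 log2 (2.01-fold; ± SE, n = 3 each; adjusted p = 0.0089 in limma).

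IDI1 encodes the isomerase that turns isopentenyl into dimethylallyl diphosphate, the pair of units from which all isoprenoids are built. Its probe (ILMN_1755075) read 9.10, 8.50 and 8.95 log2 on siNRCP arrays 1 to 3, against 10.02, 10.06 and 9.94 on sicontrol arrays 1 to 3. Every siNRCP array lay below every sicontrol array, with array 2 the lowest. IDI1 fell by 1.16 ± 0.16 log2 (2.23-fold; ± SE, n = 3 each; adjusted p = 0.020 in limma).

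TM7SF2 encodes a sterol reductase of the C14 double bond that follows the demethylation of lanosterol. Its probe (ILMN_1690040) read 8.66, 8.39 and 8.42 log2 on siNRCP arrays 1 to 3, against 9.47, 10.03 and 9.60 on sicontrol arrays 1 to 3. The groups were apart by more than their own spread, although the sicontrol arrays ranged more widely than the siNRCP arrays. TM7SF2 fell by 1.21 ± 0.16 log2 (2.32-fold; ± SE, n = 3 each; adjusted p = 0.018 in limma), the largest decrease of the 29.

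EBP encodes the isomerase that shifts the double bond in the sterol ring. Its probe (ILMN_2073604) read 6.45, 6.09 and 6.32 log2 on siNRCP arrays 1 to 3, against 7.09, 7.09 and 7.04 on sicontrol arrays 1 to 3. It was above background on all sicontrol arrays and on none of the siNRCP arrays, so its level in siNRCP has only an upper bound. EBP was at least 1.53-fold lower in siNRCP, with group means of 6.28 ± 0.18 in siNRCP and 7.07 ± 0.03 in sicontrol (SD, n = 3 each) and a limma adjusted p of 0.021. This bound sets the sicontrol mean against the background level of the siNRCP arrays and makes no allowance for the spread between arrays. The bound moved with the handling of background: it was 1.34-fold without background correction and with the deposited series matrix values, where the fitted decrease was 1.44-fold, and 1.86-fold with a normexp offset of 16, where the fitted decrease was 2.30-fold.

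All 4 genes also passed without siNRCP array 1, a fit in which 14.2% of all named genes passed as lower, against 1.51% with all 6 arrays. The 4 calls needed most of the other arrays. HMGCS1 and IDI1 also passed without siNRCP array 2 (limma adjusted p = 0.031 and 0.032), where TM7SF2 (0.072) and EBP (0.058) did not. None of the 4 passed without siNRCP array 3 (0.054 to 0.098) or without sicontrol array 1, 2 or 3 (0.069 to 0.15). Over the 6 fits with 1 array left out, the change of HMGCS1 ranged from -1.06 to -0.94 log2, that of IDI1 from -1.28 to -0.98 and that of TM7SF2 from -1.33 to -1.05. EBP had fitted values of -0.87 to -0.69, which are no measure of its change, as its siNRCP arrays lay at background. Of all named genes only 10, 11 and 5 passed as lower without sicontrol array 1, 2 and 3.

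**Figure D2:**
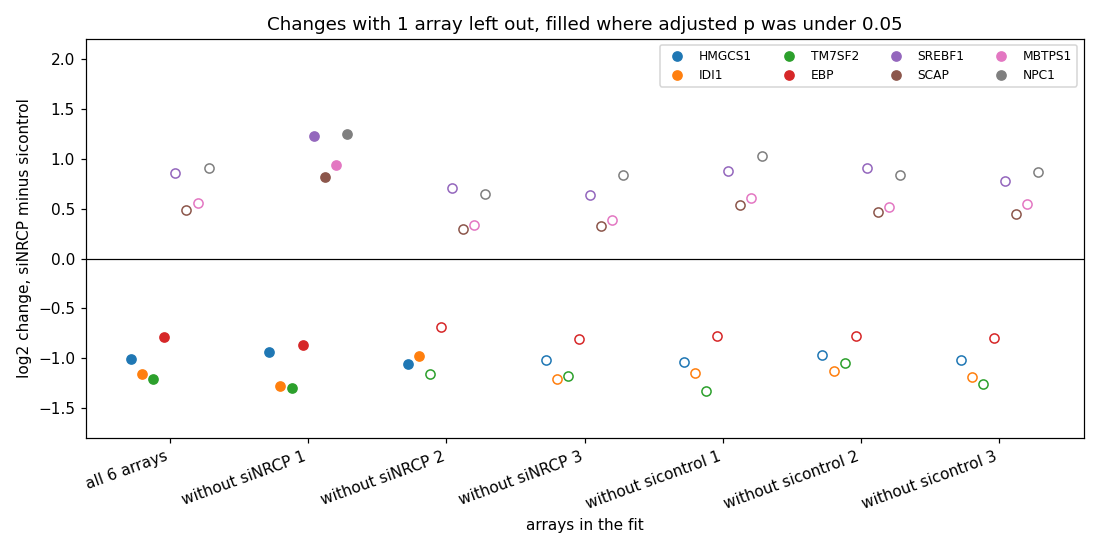
Log2 change, siNRCP minus sicontrol (y axis), of 8 genes fitted with all 6 arrays and with each array left out (x axis), filled where the adjusted p was under 0.05. HMGCS1, IDI1 and TM7SF2 lie between -1.33 and -0.94 in the fits with an array left out, EBP is drawn at its fitted value although its siNRCP arrays lay at background, and SREBF1, SCAP, MBTPS1 and NPC1 are filled in the fit without siNRCP array 1 and open in the rest.

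Promoter windows of the genes that fell are printed to show the sequence next to their starts, together with that of SREBF2, which held the sterol element searched for. Windows run from 250 bases before to 50 bases after a RefSeq gene start (GRCh38.p14), and 27 of the 30 genes had at least 1 window, 36 in all. The letters TCACNCCAC, a form of the sterol regulatory element, were found on either strand in 1 of the 36 windows (2.78%), that of SREBF2, and in 1.13% of all 35116 windows. The NF-Y box CCAAT, the site of a factor known to act with SREBPs, was found in 21 of the 36 (58.3%), against 34.6% of all windows. The Sp1 box GGGCGG was found in 31 (86.1%), against 45.0%. Capitals below mark CCAAT matches, which read ATTGG where they lie on the other strand, and in SREBF2 also the sterol element, which begins 133 bases before the gene start. IDI1 and HMGCS1 have several starts, and the window with the most NF-Y boxes is shown. Of the 3 matches in IDI1, a CCAAT and an ATTGG share bases and are counted separately. These 5 windows were chosen after the values and matches had been seen, and a match of letters is no measure of binding.
HMGCS1 (chr5:43313363-43313662, minus strand): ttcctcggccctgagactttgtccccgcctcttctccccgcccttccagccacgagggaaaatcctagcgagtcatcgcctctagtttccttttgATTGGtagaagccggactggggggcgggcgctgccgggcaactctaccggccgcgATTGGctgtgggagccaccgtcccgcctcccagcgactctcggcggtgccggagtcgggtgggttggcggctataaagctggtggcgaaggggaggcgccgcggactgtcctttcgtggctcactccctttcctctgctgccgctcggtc
IDI1 (chr10:1048837-1049136, minus strand): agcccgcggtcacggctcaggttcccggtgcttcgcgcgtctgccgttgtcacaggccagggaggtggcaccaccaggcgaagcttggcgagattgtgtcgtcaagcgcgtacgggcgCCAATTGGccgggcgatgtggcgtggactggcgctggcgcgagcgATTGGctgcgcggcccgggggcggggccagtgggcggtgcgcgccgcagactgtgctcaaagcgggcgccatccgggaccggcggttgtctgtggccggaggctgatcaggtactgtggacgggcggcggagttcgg
TM7SF2 (chr11:65111622-65111921, plus strand): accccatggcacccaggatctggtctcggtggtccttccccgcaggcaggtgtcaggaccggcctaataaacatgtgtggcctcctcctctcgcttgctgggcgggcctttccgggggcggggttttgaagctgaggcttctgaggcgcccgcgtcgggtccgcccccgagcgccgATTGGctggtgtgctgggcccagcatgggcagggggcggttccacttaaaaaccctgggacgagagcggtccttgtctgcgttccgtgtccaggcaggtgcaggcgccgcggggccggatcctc
EBP (chrX:48521558-48521857, plus strand): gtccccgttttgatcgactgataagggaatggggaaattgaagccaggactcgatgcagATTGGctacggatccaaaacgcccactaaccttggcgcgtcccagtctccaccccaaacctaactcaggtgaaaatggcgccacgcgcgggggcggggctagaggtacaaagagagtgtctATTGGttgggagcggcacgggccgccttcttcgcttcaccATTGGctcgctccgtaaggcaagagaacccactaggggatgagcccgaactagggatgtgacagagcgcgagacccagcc
SREBF2 (chr22:41832855-41833154, plus strand): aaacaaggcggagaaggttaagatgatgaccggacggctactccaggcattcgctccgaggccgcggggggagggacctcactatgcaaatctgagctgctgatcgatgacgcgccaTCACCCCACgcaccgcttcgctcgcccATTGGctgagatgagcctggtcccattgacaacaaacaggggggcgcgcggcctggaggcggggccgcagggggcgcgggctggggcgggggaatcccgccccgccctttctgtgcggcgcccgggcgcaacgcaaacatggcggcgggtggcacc

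The HMGCS1 window shown holds 2 NF-Y boxes, that of EBP 3 and that of TM7SF2 1. The other HMGCS1 window holds 0, and the IDI1 windows not shown hold 0 and 2. The SREBF2 window holds the sterol element and 1 NF-Y box. The 4 genes that fell had no match to TCACNCCAC in these windows, and only 1.13% of all windows had one. Other forms of the element and bases outside the windows were not searched, so a missing match is no measure of binding either.

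All 8 enzymes from acetyl-CoA to the isoprenoid diphosphates had a negative change, with a median of -0.24 log2, and 2 of them, HMGCS1 and IDI1, passed. The sign of 3 of them rested on 1 array: PMVK read 0.11 and GGPS1 0.06 log2 without siNRCP array 2, and MVK 0 without sicontrol array 2. ACAT2, the thiolase that makes acetoacetyl-CoA, read 10.41, 9.57 and 9.40 log2 on siNRCP arrays 1 to 3, against 10.65, 10.62 and 10.66 on sicontrol arrays 1 to 3. All siNRCP arrays lay below all sicontrol arrays, but array 1 only slightly, and the change of -0.85 ± 0.24 log2 (± SE, n = 3 each) did not pass (limma adjusted p = 0.16). Without siNRCP array 1 it was -1.16 (1.6e-06). The dimmer ACAT2 probe read -0.28 ± 0.16 log2 (0.52).

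The mevalonate kinases and the decarboxylase showed no call. MVD, the decarboxylase that yields isopentenyl diphosphate, read 7.55, 7.34 and 7.28 log2 on siNRCP arrays 1 to 3, against 7.67, 7.57 and 7.62 on sicontrol arrays 1 to 3. These groups did not overlap, yet the change was small (-0.23 log2, 95% interval -0.47 to 0.01; limma adjusted p = 0.38). MVK, mevalonate kinase, changed by -0.05 log2 (-0.27 to 0.17). PMVK, the next kinase, read 7.97, 6.94 and 7.33 log2 on siNRCP arrays 1 to 3, against 7.49, 7.65 and 7.50 on sicontrol arrays 1 to 3. Its siNRCP array 1 was the highest of the 6 and its array 2 the lowest, so the group mean says little about it (-0.13 log2, -0.69 to 0.42).

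FDPS, which joins the units to farnesyl diphosphate, changed by -0.24 log2 (95% interval -0.68 to 0.20), with the groups overlapping. GGPS1, which makes geranylgeranyl diphosphate for protein prenylation, changed by -0.09 log2 (-0.45 to 0.28). Neither passed, and a decrease of the size seen in HMGCS1 lies outside both intervals.

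The enzymes of squalene oxidation and ring closure showed no call, and both changes turned negative under median scaling (-0.09 log2 in SQLE and -0.16 in LSS). SQLE, the squalene epoxidase, a rate-limiting enzyme of the pathway, read 10.96, 11.44 and 11.55 log2 on siNRCP arrays 1 to 3, against 11.22, 11.14 and 11.04 on sicontrol arrays 1 to 3. Array 1 of siNRCP lay below the sicontrol arrays and arrays 2 and 3 above them, and the change was 0.18 log2 (95% interval -0.19 to 0.55; limma adjusted p = 0.70). Its dimmer probe read 0.17 ± 0.09 log2 (± SE, n = 3 each; limma adjusted p = 0.47). LSS, the cyclase that makes lanosterol, also had siNRCP array 1 below the sicontrol arrays and arrays 2 and 3 above them, with 9.04, 9.89 and 9.63 log2 in siNRCP, against 9.52, 9.45 and 9.36 in sicontrol (0.08 log2, -0.40 to 0.55), and its other probes lay at background.

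The 8 enzymes from lanosterol to cholesterol were split. Beside TM7SF2 and EBP, 3 had negative and 3 positive changes, and none of these 6 passed. MSMO1, the oxidase that removes methyl groups at C4, read 11.43, 11.46 and 11.72 log2 on siNRCP arrays 1 to 3, against 11.90, 11.90 and 11.96 on sicontrol arrays 1 to 3. The groups did not overlap, and the change was -0.38 ± 0.10 log2 (± SE, n = 3 each; adjusted p = 0.15 in limma). Its other probes disagreed in sign, at -0.43 ± 0.15 (0.26) and 0.06 ± 0.17 (0.93).

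NSDHL, the dehydrogenase of the same demethylation, read 9.99, 9.21 and 9.36 log2 on siNRCP arrays 1 to 3, against 10.04, 10.01 and 10.05 on sicontrol arrays 1 to 3. Arrays 2 and 3 were well below the sicontrol arrays and array 1 next to them (-0.51 ± 0.19 log2; ± SE, n = 3 each; adjusted p = 0.29 in limma). HSD17B7, the ketoreductase that completes the step, read 12.54, 13.79 and 13.37 log2 in siNRCP, against 13.19, 12.70 and 13.11 in sicontrol. The groups overlapped (0.24 log2, 95% interval -0.47 to 0.94). The gene has pseudogene copies, HSD17B7P1 and HSD17B7P2, and how much of this signal is theirs was not tested.

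CYP51A1, the lanosterol demethylase, acts just before TM7SF2 and did not pass. It read 11.01, 11.62 and 11.72 log2 on siNRCP arrays 1 to 3, against 11.17, 11.03 and 10.92 on sicontrol arrays 1 to 3, a change of 0.41 ± 0.19 log2 (± SE, n = 3 each; adjusted p = 0.40 in limma). SC5D, the desaturase near the end of the route, read 11.04, 11.46 and 11.73 log2 in siNRCP, against 11.20, 11.02 and 11.06 in sicontrol (0.32 ± 0.17; 0.49). In both genes siNRCP arrays 2 and 3 were above all sicontrol arrays and array 1 was among them. DHCR7, a reductase of the final step, changed by -0.14 log2 (95% interval -0.44 to 0.16), and by -0.24 (-0.51 to 0.03) on its second probe.

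**Figure D3:**
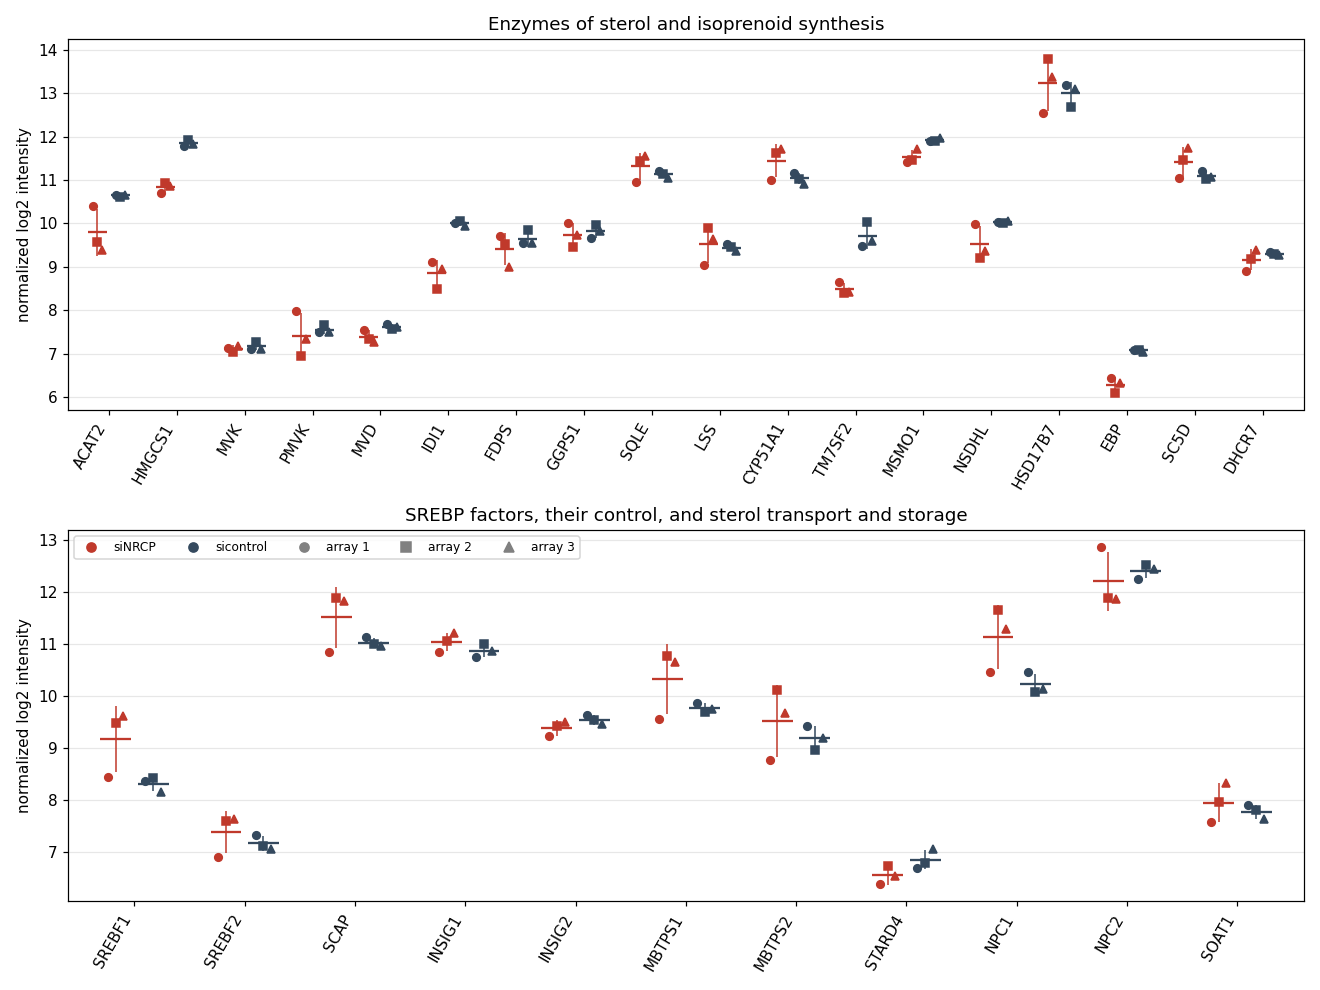
Normalized log2 intensity (y axis) of the 29 genes on each array, siNRCP left of sicontrol for each gene, with the mean (horizontal line) and SD (vertical line) of 3 arrays and a symbol per array number. HMGCS1, IDI1, TM7SF2 and EBP show groups well apart, whereas in SCAP, MBTPS1, MBTPS2 and SREBF2 siNRCP array 1 (circle) lies below its sicontrol group and arrays 2 and 3 above it.

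None of the SREBP genes and their processing machinery passed as lower. Of the 7 genes 6 had a positive change, with a median of 0.33 log2, although INSIG1 turned to -0.10 under median scaling, and none passed (0 of 7; 1, SREBF1, at an unadjusted limma p under 0.05). SREBF1, the gene of SREBP-1, read 8.44, 9.47 and 9.61 log2 on siNRCP arrays 1 to 3, against 8.36, 8.42 and 8.16 on sicontrol arrays 1 to 3. Every siNRCP array was above every sicontrol array, array 1 by little and arrays 2 and 3 by much more, and the change was 0.86 ± 0.29 log2 (± SE, n = 3 each; adjusted p = 0.24 in limma). A second probe gave the same order of groups, with 6.99, 7.44 and 7.32 log2 in siNRCP, against 6.82, 6.56 and 6.60 in sicontrol (0.59 ± 0.14; 0.10), and its dimmest probe lay at background. By the brightest probe, SREBF1 was the only 1 of the 29 genes whose siNRCP arrays all lay above the sicontrol arrays (3.45%). Of all named genes 11.4% did, and of those above background 15.7%. The dimmer probes of SQLE and MBTPS1 had that order as well. In 8 of the 29 genes (27.6%) all siNRCP arrays lay below the sicontrol arrays, where 10.8% of all named genes, and 14.9% of those above background, did.

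SREBF2, the gene of SREBP-2, the main driver of sterol synthesis, read 6.90, 7.60 and 7.63 log2 on siNRCP arrays 1 to 3, against 7.33, 7.11 and 7.05 on sicontrol arrays 1 to 3 (0.21 log2, 95% interval -0.25 to 0.68). SCAP, the escort protein, read 10.84, 11.88 and 11.82 log2 in siNRCP, against 11.14, 10.99 and 10.95 in sicontrol (0.49, -0.13 to 1.10). In both, array 1 was the lowest of the 6 arrays and arrays 2 and 3 the highest. MBTPS1, the site-1 protease, read 9.56, 10.77 and 10.66 log2 in siNRCP, against 9.87, 9.69 and 9.76 in sicontrol (0.56, -0.14 to 1.25). Its dimmer probe had all siNRCP arrays above the sicontrol arrays (0.49 ± 0.17; ± SE, n = 3 each; adjusted p = 0.25 in limma). MBTPS2, the site-2 protease, read 8.77, 10.12 and 9.67 log2 in siNRCP, against 9.43, 8.96 and 9.19 in sicontrol (0.33, -0.41 to 1.07). Its second probe was close to background.

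The INSIG genes, which hold SCAP in the endoplasmic reticulum, differed little between the groups. INSIG1, itself a classical SREBP target, read 10.85, 11.05 and 11.21 log2 on siNRCP arrays 1 to 3, against 10.76, 10.99 and 10.87 on sicontrol arrays 1 to 3. The groups overlapped, and the interval of the change was -0.12 to 0.45 log2 around 0.17 (limma adjusted p = 0.64). The dimmer INSIG1 probe gave 0 ± 0.15 log2 (± SE, n = 3 each; limma adjusted p = 1). INSIG2 changed by -0.16 log2 (95% interval -0.40 to 0.09). HMGCS1 is also a known SREBP target, and the difference between the changes of these genes was not tested.

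Of the genes of sterol transport and storage, NPC1 had the largest change. NPC1, the lysosomal membrane protein through which sterols leave the lysosome, read 10.45, 11.66 and 11.28 log2 on siNRCP arrays 1 to 3, against 10.46, 10.07 and 10.13 on sicontrol arrays 1 to 3. Array 1 of siNRCP matched the highest sicontrol array and arrays 2 and 3 were above it (0.91 ± 0.29 log2; ± SE, n = 3 each; adjusted p = 0.21 in limma). NPC2, its soluble partner, read 12.87, 11.89 and 11.86 log2 in siNRCP, against 12.25, 12.51 and 12.45 in sicontrol (-0.20, 95% interval -0.81 to 0.41). In NPC2 the split of the siNRCP arrays ran the other way, with array 1 the highest of the 6. STARD4, a sterol carrier of the cytosol, was close to background (-0.30, -0.61 to 0.01), and SOAT1, the enzyme that esterifies cholesterol for storage, overlapped between the groups (0.18, -0.26 to 0.61).

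The split between siNRCP array 1 and arrays 2 and 3 ran through the genes that did not pass. In 15 of the 29 (51.7%) array 1 lay on 1 side of the sicontrol mean and arrays 2 and 3 both on the other, as in 39.8% of the named genes above background. The median of the 7 SREBP genes, set against the sicontrol mean, was -0.21 log2 on siNRCP array 1, 0.85 on array 2 and 0.48 on array 3, and that of the 8 early enzymes was -0.05, -0.49 and -0.50. In HMGCS1 the same differences were -1.14, -0.91 and -0.98 log2 and in TM7SF2 -1.04, -1.32 and -1.28, with no such split. The test counts a wide spread within a group against a call, so genes that passed were unlikely to show the split. Its absence there is no separate support for the calls. When siNRCP array 1 was left out, 8 of the 29 genes passed as lower and 10 as higher. In that fit 14.2% of all named genes passed as lower and 17% as higher, so a pass there says little of these genes in particular. SREBF1 (1.23 log2, limma adjusted p = 1.7e-06), SCAP (0.82, 3.9e-05), MBTPS1 (0.94, 1.1e-05) and NPC1 (1.25, 7.2e-06) were among those higher.

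**Figure D4:**
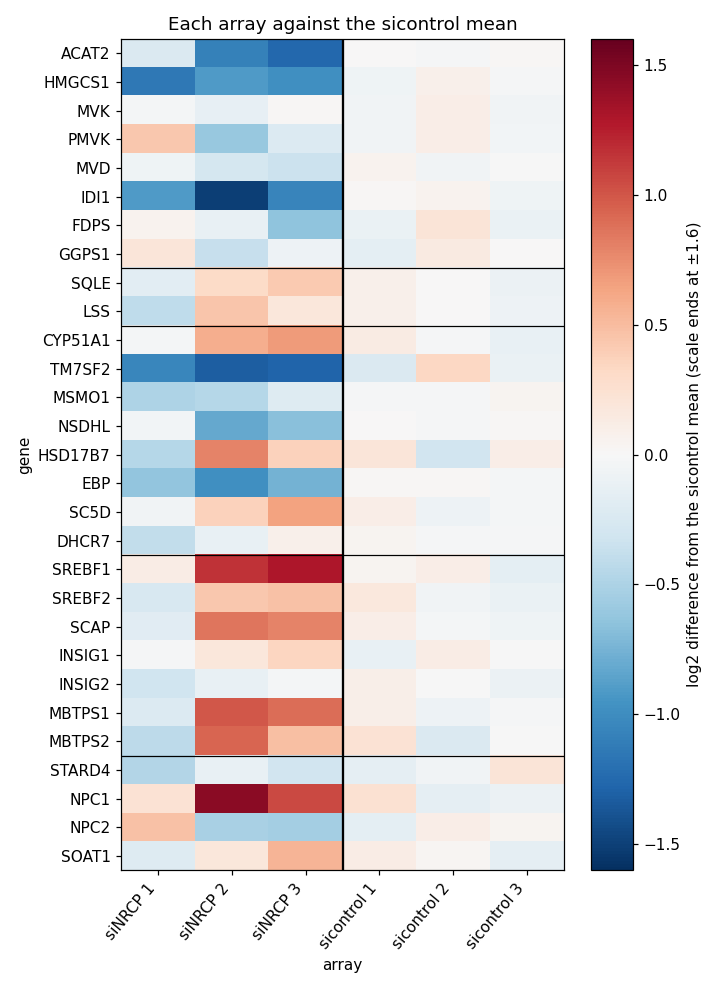
Difference of each array (columns) from the sicontrol mean for the 29 genes (rows, in pathway order, with lines between the roles), in log2 from -1.6 (blue) to 1.6 (red). HMGCS1, IDI1, TM7SF2 and EBP are blue on all 3 siNRCP arrays, and most SREBP genes are pale or blue on siNRCP array 1 and red on arrays 2 and 3.

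The change of a gene also went with its span, the genomic length from its first to its last base in RefSeq. Across the 29 genes the Spearman rho between span and siNRCP minus sicontrol was 0.64, and 0.67 between span and siNRCP arrays 2 and 3 minus array 1. Within sicontrol, array 1 minus arrays 2 and 3 had a rho of 0.68 with span. Over 11551 named genes above background these were 0.21, 0.42 and 0.26. The genes share arrays and are not independent replicates, so these are descriptions. TM7SF2 and EBP, the shortest of the 29 at 4359 and 6909 bases, are both among the genes that fell, and SREBF2, SCAP, MBTPS1, NPC1 and SOAT1, at 63180 to 80323 bases, all had positive changes. HMGCS1 (25943 bases) and IDI1 (17553 bases) lie near the median span of 22122 bases, below other genes of like span. What part span or the difference between arrays has in these changes was not tested.

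**Figure D5:**
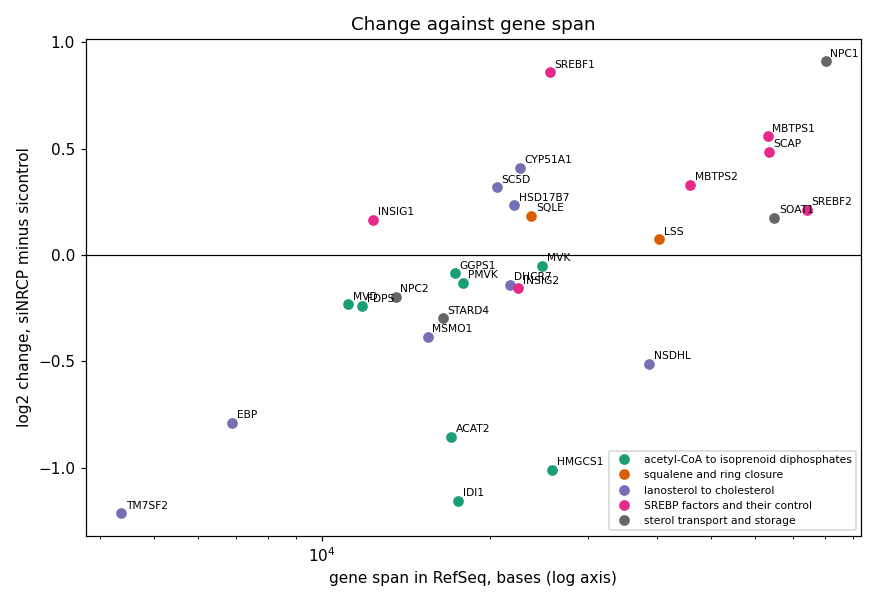
Log2 change, siNRCP minus sicontrol (y axis), against gene span in bases (x axis, log scale) for the 29 genes, coloured by role, 1 point per gene. Changes run from -1.21 in TM7SF2, the shortest gene, to 0.91 in NPC1, the longest, and IDI1 and HMGCS1 lie below genes of like span.

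Genes that border on the pathway, in 5 lists set by function (57 of 63 genes measured), gave 1 decrease and 4 increases, where 1.51% of named genes passed as lower and 1.27% as higher. These lists were chosen with earlier results of the same samples known. Among the enzymes that use isoprenoid diphosphates, 2 of 14 rose and none fell: ICMT, which methylates prenylated proteins, rose by 0.92 ± 0.10 log2 (± SE, n = 3 each; adjusted p = 0.0098 in limma), and PDSS2, a subunit of the synthase of the ubiquinone side chain, rose by 1.26 ± 0.14 (0.011). The list's median was 0 log2, against 0.01 over all named genes. Without siNRCP array 1, where 14.2% of named genes passed as lower and 17% as higher, 3 of the 14 passed as lower and 4 as higher.

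Of 12 lipogenic enzymes, classical targets of SREBP-1, none (0) passed in either direction, with a median of -0.02 log2. At an unadjusted limma p under 0.05, 3 were lower and 1 higher, where 9.53% and 11% of all named genes were. Of the named genes above background, 15.5% were lower and 18.1% higher at that threshold. FASN, the fatty acid synthase, changed by 0.66 ± 0.35 log2 (± SE, n = 3 each; adjusted p = 0.48 in limma) and ELOVL6, an elongase, by -0.69 ± 0.13 (0.056), both named after their values were seen as the ends of the list's range. Without siNRCP array 1, where 14.2% of named genes passed as lower and 17% as higher, 2 of the 12 passed as lower and 3 as higher. FASN (1.09 log2, limma adjusted p = 4.5e-05) and ELOVL6 (-0.55, 0.0013) were among them. Under cyclic loess ELOVL6 passed as well (-0.71 log2, limma adjusted p = 0.030). Of 11 genes of sterol-regulated degradation none passed (0; 5 higher at an unadjusted limma p under 0.05, where 11% of named genes and 18.1% of those above background were), with a median of 0.32. When siNRCP array 1 was left out, 6 of the 11 passed as higher and 0 as lower.

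Of 7 genes of the LXR receptors and sterol export, RXRB, a partner receptor of LXR, rose by 0.63 ± 0.11 log2 (± SE, n = 3 each; adjusted p = 0.038 in limma), and the list's median was 0.08. Leaving out siNRCP array 1, where 14.2% of named genes passed as lower and 17% as higher, 2 of the 7 passed as higher. Of 13 genes of sterol uptake and transfer 1 fell and 1 rose, with a median of -0.10, and 1 fell and 4 rose when siNRCP array 1 was left out. LIPA, the acid lipase that frees cholesterol from its esters in the lysosome, fell by 2.49 ± 0.15 log2 (5.62-fold; ± SE, n = 3 each; adjusted p = 0.0028 in limma), more than any of the 29 genes. Its probe read 7.10, 6.97 and 7.54 log2 on siNRCP arrays 1 to 3, against 9.70, 9.79 and 9.60 on sicontrol arrays 1 to 3, with every siNRCP array below every sicontrol array. VPS4A, an ATPase of the endosomal sorting machinery, rose by 0.67 ± 0.09 (0.018). LIPA lost its call when sicontrol array 3 was left out, and ICMT, PDSS2, RXRB and VPS4A lost theirs when any 1 sicontrol array was left out. RXRB and VPS4A also lost theirs without siNRCP array 2 or 3, with an offset of 16, under median scaling and with trend and robust options. ICMT lost its call under median scaling (0.70 log2, limma adjusted p = 0.072), and PDSS2 without siNRCP array 3 (1.19, 0.063).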

How the data were processed

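Total RNA of 3 siNRCP and 3 sicontrol samples was measured on Illumina BeadArrays. The deposited non-normalized table holds linear bead intensity; the authors used BeadStudio per the submitters' processing notes. The deposited series matrix holds log2 values that look quantile normalized, within 0.065 of what quantile normalizing the logged intensities gives; how the authors made it is not stated per the labels. It was used as an alternative.

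The intensity table has no detection p-values, so intensities were corrected with normexp (offset 50), quantile normalized and put on the log2 scale with no detection filter. All 47231 probes were fitted in limma 3.58.1 (R 4.3.3; lmFit and eBayes) without a covariate as siNRCP minus sicontrol, with Benjamini-Hochberg over all probes and a threshold of 0.05. Intervals are 95% intervals of that fit. Of the probes 30113 had 1 gene symbol, 8 several and 17110 none, and 30074 were matched by Entrez identifier. The fit was tested on simulated data with independent noise on each probe, in which no array stood apart as siNRCP array 1 did. That test says nothing of the effect of such an array. Same-numbered arrays did not deviate together (r = -0.64, -0.43 and -0.20 over 20027 probes), and the replicate number was not used as a pairing. Some arrays of different numbers did: sicontrol array 1 went with siNRCP arrays 2 and 3 (r = 0.5 and 0.63). Sicontrol array 2 went with siNRCP array 1 (0.54) and against siNRCP array 3 (-0.53). For sicontrol array 3 the values were 0.19 with siNRCP array 1 and -0.13 with siNRCP array 2. With so few arrays per group these correlations cannot show whether same-numbered samples were handled together, and the labels do not say.

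Every listed gene with a probe is named, and of each bordering list up to 2 genes per direction that passed; FASN and ELOVL6, which did not pass, were added after their values were seen. Members, lists and tests were chosen with earlier results of these data known. The alternatives were 11 other settings of processing or test and 6 fits with 1 array left out. The bound on EBP and the values of single bordering genes under them were added after seeing the data. A filter on detection p-values was left out for want of such values. The number of arrays limits the precision.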

Additional observations from a re-analysis of the deposited data

How the results depend on the processing

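The members' counts and median were recomputed under 17 alternatives. The 4 decreases, with 0 increases, were the same genes without background correction, with an offset of 16, with cyclic loess, with the series matrix values, with the filter on the background level, with the mean of a gene's probes and with a minimum of 1.5-fold. Under median scaling 3 genes passed as lower, without IDI1 (limma adjusted p = 0.080), and the median change was -0.26 log2. With trend and robust options 3 passed, without HMGCS1 (0.058). With array weights 7 passed as lower and 6 as higher, where 11.7% and 14.5% of named genes did. With the replicate number as a replicate block 0 passed as lower and 0 as higher (7 and 2 at an unadjusted limma p under 0.05). Of all named genes 0 passed as well. No array correlated best with its own number, but whether the numbers pair the samples is not known. With 1 array left out, 0 to 8 genes passed as lower, 0 to 10 as higher, and the median ranged from -0.11 to -0.01. Both upper counts came without siNRCP array 1. The direction of small changes turned in 9 of the genes that did not pass. Under median scaling SQLE read -0.09, LSS -0.16, HSD17B7 -0.09, INSIG1 -0.10 and SOAT1 -0.02 log2, and with array weights DHCR7 read 0. With 1 array left out PMVK ranged from -0.41 to 0.11 log2, GGPS1 from -0.23 to 0.06, LSS from -0.11 to 0.32 and HSD17B7 from -0.04 to 0.58, each turning without siNRCP array 2. SOAT1 ranged from -0.01 (without siNRCP array 3) to 0.36, and MVK from -0.09 to 0 (without sicontrol array 2). For the bordering lists, with array weights 3 isoprenoid-using genes passed as lower and 4 as higher, 3 lipogenic as lower and 1 as higher, 6 of sterol-regulated degradation, 2 of LXR and export and 4 of uptake and transfer as higher. Under cyclic loess 1 lipogenic gene passed as lower. Median scaling left 1 increase in the isoprenoid-using list, 0 in LXR and export and 0 in uptake and transfer. Trend and robust options left 0 in both of the last lists, the filter on the background level 0 in LXR and export (RXRB, limma adjusted p = 0.054), and the offset of 16 left 0 in uptake and transfer. With the replicate block 0 bordering genes passed, LIPA included (0.13). With 1 array left out the isoprenoid-using list had 0 to 3 lower and 0 to 4 higher, the lipogenic list 0 to 2 and 0 to 3, degradation 0 to 6 higher, LXR and export 0 to 2 higher, and uptake and transfer 0 to 1 lower and 0 to 4 higher. The bound on the decrease of EBP ranged from 1.34-fold to 1.86-fold over the normalizations. The causes were not tested. Signal over background limits EBP, STARD4 and the dimmer probes of LSS, SREBF1 and MBTPS2.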
